A study of Mus musculus with 12 samples.

Results

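Genes for 10 secreted or membrane-bound immune signals of the intestinal epithelium were described in mouse colonoids, cultured organoids grown from colonic epithelial stem cells. The 10 genes, Cxcl1, Cxcl2, Cxcl5, Cxcl16, Ccl20, Ccl25, Ccl28, Cx3cl1, Il18 and Tnf, were taken by symbol from a table of 54532 genes, and each symbol occurred once. In the coordinates of the table (mm10), Cxcl5 (chr5:90759360-90761624), Cxcl1 (chr5:90891241-90893115) and Cxcl2 (chr5:90903871-90905938) lie in a cluster on chromosome 5, and Ccl20 lies at chr1:83116766-83119167, Cxcl16 at chr11:70453983-70459984, Ccl25 at chr8:4325210-4360020, Cx3cl1 at chr8:94772009-94782427, Il18 at chr9:50554827-50581840, Ccl28 at chr13:119623819-119654359 and Tnf at chr17:35199381-35202007. All are protein-coding. The 12 libraries of poly-A RNA formed 4 groups of 3. Control colonoids came from Hmox1 fl/fl mice, which carry floxed Hmox1 alleles and for which the labels name no Cre. Colonoids called KO by the labels came from Hmox1 ΔIEC mice, whose floxed Hmox1 is recombined by Cre under the Vil1 promoter, a promoter active in the epithelium of the intestine. Both were kept with vehicle or with 200 µM hemin, the oxidised form of heme, for 24 h. Epithelium was harvested from mice aged 8 to 12 weeks. No label ties a library to a mouse, a clone or a separate culture, so all p-values measure the spread between these libraries, which may be technical.

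Chemokines are small proteins that steer leukocytes through receptors on the migrating cell. In the gut, epithelial cells release chemokines that attract neutrophils (Cxcl1, Cxcl2 and Cxcl5), cells carrying the receptor Ccr6 (Ccl20), and the lymphocytes and plasma cells that home to the mucosa (Ccl25 and Ccl28). Cxcl16 and Cx3cl1 are made as membrane proteins with a chemokine head that proteases can shed, and Il18 is stored as a precursor that caspase-1 cuts. Tnf is a central inflammatory cytokine, made mostly by leukocytes and at times by epithelium. Heme oxygenase-1, the product of Hmox1, breaks down heme.

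Levels are in FPKM, a fragment count divided by gene length and by library size, and can be compared between genes because they are per length. Fold changes of the tests are on the log2(FPKM + 1) scale, which understates the change of low genes. Calls required a limma p-value below 0.05 after adjustment and a log2 fold change beyond 1 in either direction, and 12740 genes that reached 1 FPKM in 3 or more libraries were tested. Of the 10 genes, 9 entered the test and Cxcl2 did not.

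The libraries held between 11648801 and 25101868 fragments on genes. Hmox1 itself went with its label under vehicle (7.46 ± 0.54 FPKM in controls and 2.52 ± 0.55 labelled KO, SD, n = 3 each) and against it under hemin (456 ± 65 and 1314 ± 68 FPKM), and was called in both comparisons (limma log2 fold change -1.27, adjusted p = 1.25e-05, and 1.53, adjusted p = 3.29e-06). The libraries are therefore named by their label. Replicate 3 labelled KO with hemin has a genotype written as floxed with Cre where the others read KO, and no member's call changed without it. Control hemin replicate 3 lay farthest from its group (a root mean square deviation of 0.323 on the log2 scale, against 0.123 to 0.238 in the others), and values without it are given where it bears on a result. Summed FPKM of 8 epithelial markers were 6299 to 6855 in vehicle controls, 6529 to 8052 in hemin controls, 4530 to 4599 with vehicle labelled KO and 6215 to 7236 with hemin labelled KO. Of the 8, Krt20 (1.41, limma adjusted p = 3.83e-07) and Vil1 (1.28, adjusted p = 6.79e-07) were called higher with hemin labelled KO, where Epcam differed by 0.98 (1.03 and called without KO hemin replicate 2), and in controls these were 0.77, 0.83 and 0.78. Cdx2 was called lower labelled KO with vehicle (-2.03) and with hemin (-1.27). The part of these markers in the results below was not tested. Those of 12 leukocyte markers were 1.18 to 6.23, with 10 below 1 FPKM throughout and Nkg7 and Tyrobp at 0 in all 12 libraries, and Cd68, the 1 tested, was called higher with hemin labelled KO (1.14, adjusted p = 0.00184). By group the leukocyte sums were 3.87 to 6.23 in vehicle controls, 2.59 to 5.51 in hemin controls, 1.18 to 1.85 with vehicle labelled KO and 3.05 to 3.97 with hemin labelled KO. Those of 10 stromal markers were 0.491 to 1.41, with Col1a2 and Dcn at 0. Among markers of gut region, Hoxb13 and Hoxd13, which mark the distal hindgut, were at 0 in all 6 control libraries and at 104 to 134 and 31.2 to 59.7 FPKM in the libraries labelled KO. Car4 (means of 1.87 and 0.788 FPKM in vehicle and hemin controls, a mean of 58.0 FPKM with vehicle and a range of 2.88 to 5.72 FPKM with hemin labelled KO) was called higher labelled KO with vehicle (4.36) and hemin (1.61) and lower with hemin labelled KO (-3.43, interaction -2.75, limma adjusted p = 3.67e-05). Car1 (2129 and 4918, 1314 and 2849 FPKM) was called higher with hemin in controls (1.18, or 0.98 and not called without control hemin replicate 3) and labelled KO (1.11). Apoa4, Gata4, Lct and Onecut2 stayed below 1 FPKM in all 12 libraries and Fabp6 at or below 1.33 FPKM. The differences between genotypes below moved with Hoxb13, Hoxd13 and Car4, and genotype and origin of the culture cannot be told apart.

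Each comparison called 3 of the 9 tested members. Hemin raised Ccl20 and lowered Cxcl16 and Tnf in controls, where 2.17% of all tested genes were called higher and 5.93% lower. Among the libraries labelled KO, hemin raised Ccl28 and lowered Ccl20 and Tnf, beside 4.87% of all tested genes higher and 8.07% lower. With vehicle, Cxcl5 and Ccl28 were higher and Cxcl16 lower in colonoids labelled KO than in controls (all tested genes 3.53% higher and 3.27% lower). With hemin, Cxcl5 and Ccl28 were higher and Ccl20 lower in colonoids labelled KO (all tested genes 3.10% and 2.91%). The hemin response itself differed between genotypes, by the interaction term, for Cxcl5 and Cxcl16 (higher) and Ccl20 (lower), beside 2.57% and 2.56% of all tested genes. Medians over the 9 members in these comparisons were -0.09, 0.29, 0.01, -0.13 and 0.08 on the log2 scale, and those of all tested genes lay between -0.01 and 0.04. With the values rescaled to the same sum in every library (TPM), the median of all genes moved to -0.19 and -0.31 for hemin in controls and labelled KO, to 0.16 for the genotypes under vehicle and to -0.11 for the interaction, and the share of calls that were higher moved from 26.8% to 15.5%, from 37.6% to 14.7% and, for the interaction, from 50.2% to 34.0%. Gm23935 held 16.8%, 29% and 21% of the FPKM sum in control vehicle replicate 1, control hemin replicate 1 and KO hemin replicate 2, against 1.18% to 2.81% in the other 9 libraries, and the TPM scale takes this in. On a TPM scale without Gm23935 the medians were -0.12 and -0.21 for hemin, 0.08 for the genotypes under vehicle and -0.09 for the interaction, and the shares of calls that were higher were 19.4%, 20.2% and 36.5%.

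**Figure D1:**
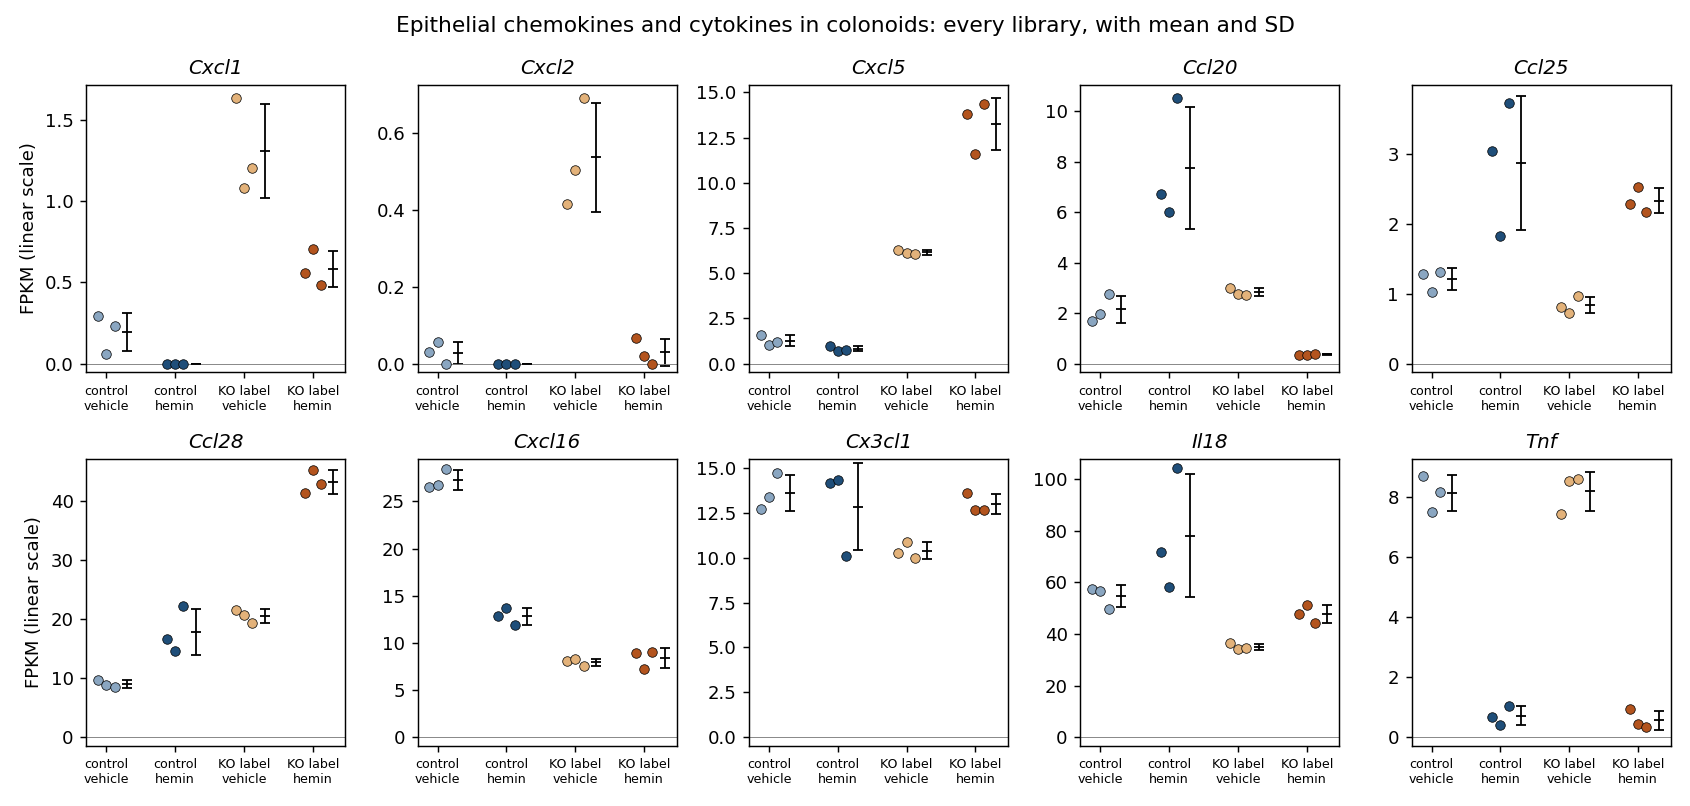
FPKM (linear scale, from 0, a separate range in each panel) of the 10 genes in every library, with points for the 3 libraries of each group and bars for mean and SD. Tnf is below every vehicle library in all 6 hemin libraries, Ccl20 moves in opposite directions with hemin in the 2 genotypes, and Cxcl5 is at least 6.06 FPKM only in libraries labelled KO.

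Tnf showed the largest fitted response to hemin among the 9 tested members. Its level was 8.69, 7.50 and 8.17 FPKM in the vehicle controls and 0.695, 0.413 and 1.04 FPKM in the hemin controls. Labelled KO, it was 7.43, 8.54 and 8.59 FPKM with vehicle and 0.932, 0.441 and 0.340 FPKM with hemin. All 6 vehicle libraries lay above all 6 hemin libraries, and the genotypes overlapped under both treatments. The hemin libraries still held 8 to 22 Tnf fragments each. The group means fell 11.3-fold in controls (limma log2 fold change -2.42, SE 0.15, adjusted p = 5.08e-07) and 14.3-fold labelled KO (-2.56, SE 0.15, adjusted p = 1.71e-07). No difference between genotypes passed the test with vehicle (0.01, 95% interval -0.33 to 0.35) or hemin (-0.13, 95% interval -0.47 to 0.21), nor did the interaction (-0.14, 95% interval -0.62 to 0.34, adjusted p = 0.706). In bulk RNA, fewer cells of a type and less RNA per cell cannot be told apart. Of the 12 leukocyte markers only Cd68 was tested, and the others rest on few fragments. Mean Itgam went from 0.378 to 0.0453 FPKM with hemin in controls and from 0.142 FPKM to 0 labelled KO, and Csf1r from 0.133 to 0.0120 and from 0.0283 to 0.0219 FPKM. S100a8 went from 0.428 to 0.0842 FPKM and S100a9 from 0.961 FPKM to 0 in controls, and both were at 0 in all libraries labelled KO. Cd68 was higher by mean with hemin (2.72 and 3.82 FPKM in controls, 1.07 and 3.54 FPKM labelled KO), and Ptprc was at most 0.0190 FPKM in every library. Between the vehicle groups, Itgam, Csf1r, S100a8, S100a9 and Cd68 had lower means labelled KO. Ms4a1, Cd79a, Ptprc and Cd3e had higher means labelled KO, and Adgre1, Nkg7 and Tyrobp were at 0 in both. Tnf had means of 8.12 and 8.19 FPKM in vehicle controls and with vehicle labelled KO. The part of these cells in the Tnf result was not tested.

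Ccl20, the ligand of Ccr6 that draws dendritic cells, B cells and Th17 cells, responded to hemin in opposite directions. Its level was 1.71, 1.98 and 2.77 FPKM in vehicle controls and 6.72, 6.01 and 10.5 FPKM in hemin controls. With the KO label it was 3.01, 2.77 and 2.72 FPKM with vehicle and 0.342, 0.359 and 0.392 FPKM with hemin. The vehicle groups overlapped, every hemin control lay above them and every hemin library labelled KO lay below them. The mean was 3.61-fold higher with hemin in controls (log2 fold change 1.45, SE 0.17, limma adjusted p = 4.22e-05) and 7.77-fold lower labelled KO (-1.49, SE 0.17, adjusted p = 2.22e-05). With hemin the genotypes differed 21.3-fold, lower labelled KO (-2.65, SE 0.17, adjusted p = 5.66e-07), while with vehicle the difference was 0.30 (95% interval -0.08 to 0.67). The interaction was -2.94 (SE 0.24, adjusted p = 1.41e-05), and -2.73 without control hemin replicate 3, the highest Ccl20 library. The hemin libraries labelled KO held 7 to 12 fragments of Ccl20.

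The neutrophil chemokines Cxcl1, Cxcl2 and Cxcl5, which lie together on chromosome 5 and share the receptor Cxcr2, differed in abundance, with Cxcl5 well detected and Cxcl1 and Cxcl2 near the floor in several groups. Cxcl5 was 1.60, 1.01 and 1.21 FPKM in vehicle controls and 0.988, 0.726 and 0.781 FPKM in hemin controls. Libraries labelled KO had 6.30, 6.12 and 6.06 FPKM with vehicle and 13.8, 11.6 and 14.4 FPKM with hemin. The 4 groups did not overlap. Cxcl5 was 4.85-fold higher labelled KO with vehicle (log2 fold change 1.67, SE 0.11, limma adjusted p = 4.41e-07) and 15.9-fold higher with hemin (2.96, SE 0.11, adjusted p = 4.56e-09), and the interaction was 1.29 (SE 0.15, adjusted p = 1.35e-04). Its hemin response labelled KO lay just under the fold threshold (0.99, 95% interval 0.75 to 1.22, adjusted p = 1.34e-05). It lay above it at 1.07 without KO hemin replicate 2 and at 1.00 without KO vehicle replicate 1.

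Cxcl1 passed the filter only through the vehicle libraries labelled KO, so its tests are a description. Its level was 0.291, 0.0624 and 0.233 FPKM in vehicle controls and it was not detected in any hemin control. With the KO label it was 1.63, 1.08 and 1.20 FPKM with vehicle and 0.556, 0.703 and 0.483 FPKM with hemin. These levels rest on 35 to 50 fragments with vehicle and 13 to 31 with hemin labelled KO, and on 2 to 9 in vehicle controls. The vehicle means differed 6.68-fold between genotypes and the hemin means at least 4.22-fold, with 3 fragments per library as the floor for the hemin controls. On the compressed log2(FPKM + 1) scale these were 0.94 (adjusted p = 9.09e-05 by limma) and 0.66 (adjusted p = 0.00128), under the fold threshold, and the vehicle difference was 1.00 without control vehicle replicate 1. With limma-voom over all genes with 10 or more fragments, 4 of the 5 Cxcl1 comparisons were called, and only the interaction (1.87, adjusted p = 0.175) was not.

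Cxcl2 had fewer fragments. It had 0 to 2 in vehicle controls, 0 in hemin controls, 14 to 24 with vehicle labelled KO (0.414, 0.504 and 0.689 FPKM) and 0 to 2 with hemin labelled KO. Its mean with vehicle was at least 5.77-fold higher labelled KO than in controls, and its mean labelled KO was at least 6.10-fold lower with hemin, with the floor of 3 fragments per library. Between the other groups no fold can be given. Limma-voom over all genes with 10 or more fragments, a setting chosen after the data were seen, gave log2 fold changes of 3.79 (adjusted p = 2.18e-04) and -3.95 (adjusted p = 7.06e-05), a description, since nearly all Cxcl2 fragments came from the vehicle libraries labelled KO. Cxcl2 and Cxcl3 share an identical stretch of 157 bases, so reads could be split between them and Cxcl2 is uncertain. The longest stretch Cxcl1 shares with either is 23 bases.

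Promoter sequence was available from RefSeq for 8 of the 10 genes, in 9 windows (GRCm38.p6). The windows from 150 to 31 bases before the start are shown for Cxcl1, Cxcl2 and Ccl20, the members with a match to the NF-kB consensus (capitals), and for Tnf, the member with the largest fitted hemin response. NF-kB is the transcription factor through which inflammatory signals induce many chemokines. The windows lie at chr5:90891095-90891214, chr5:90903749-90903868 and chr1:83116616-83116735 on the plus strand and chr17:35202038-35202157 on the minus strand.
Cxcl1: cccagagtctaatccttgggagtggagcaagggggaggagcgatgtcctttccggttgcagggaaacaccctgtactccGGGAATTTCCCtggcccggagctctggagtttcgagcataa
Cxcl2: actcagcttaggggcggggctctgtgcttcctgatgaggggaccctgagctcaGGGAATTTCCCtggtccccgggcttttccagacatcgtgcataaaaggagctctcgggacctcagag
Ccl20: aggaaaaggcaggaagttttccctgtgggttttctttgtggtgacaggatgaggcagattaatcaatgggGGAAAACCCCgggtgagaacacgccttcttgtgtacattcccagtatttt
Tnf: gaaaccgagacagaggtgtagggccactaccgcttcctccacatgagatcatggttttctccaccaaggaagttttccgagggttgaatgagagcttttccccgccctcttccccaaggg
The consensus was found on both strands, in overlapping letters, in Cxcl1 and Cxcl2 and on the minus strand in Ccl20, where the capitals are the letters of the gene's strand. Over the 250 bases before the start, 3 of the 8 genes held it, against 3.92% of 32536 windows of that length. Tnf had none in that window. TGANTCA, the AP-1 site (6.73% of windows), and TGACNNNGC, the core of the antioxidant response element (10.2%), were found on neither strand in any of the 8. TATAAA (12.3% of windows) was found on either strand in Ccl25, Cx3cl1, Il18 and Tnf. In the annotated 3′ UTR, AU-rich ATTTA words, which mark many short-lived cytokine mRNAs, numbered 11 in Cxcl2, 9 in Ccl20, 8 in Tnf, 7 in Cxcl1, 5 each in Cxcl5 and Ccl28, 2 in Cxcl16, 1 each in Cx3cl1 and Il18 and 0 in Ccl25. Of 19189 genes compared, 3.37% had at least as many as Cxcl2, 5.42% as Ccl20, 6.83% as Tnf and 8.96% as Cxcl1. Per kb of 3′ UTR the words were most frequent in Cxcl2 (15), Cxcl1 (11.8), Tnf (10.5), Ccl20 (8.57) and Il18 (8.13, from 1 word in 123 bases), and 0.589%, 1.08%, 1.47%, 2.32% and 2.66% of the genes were at least as dense. A match is a description of the sequence.

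**Figure D2:**
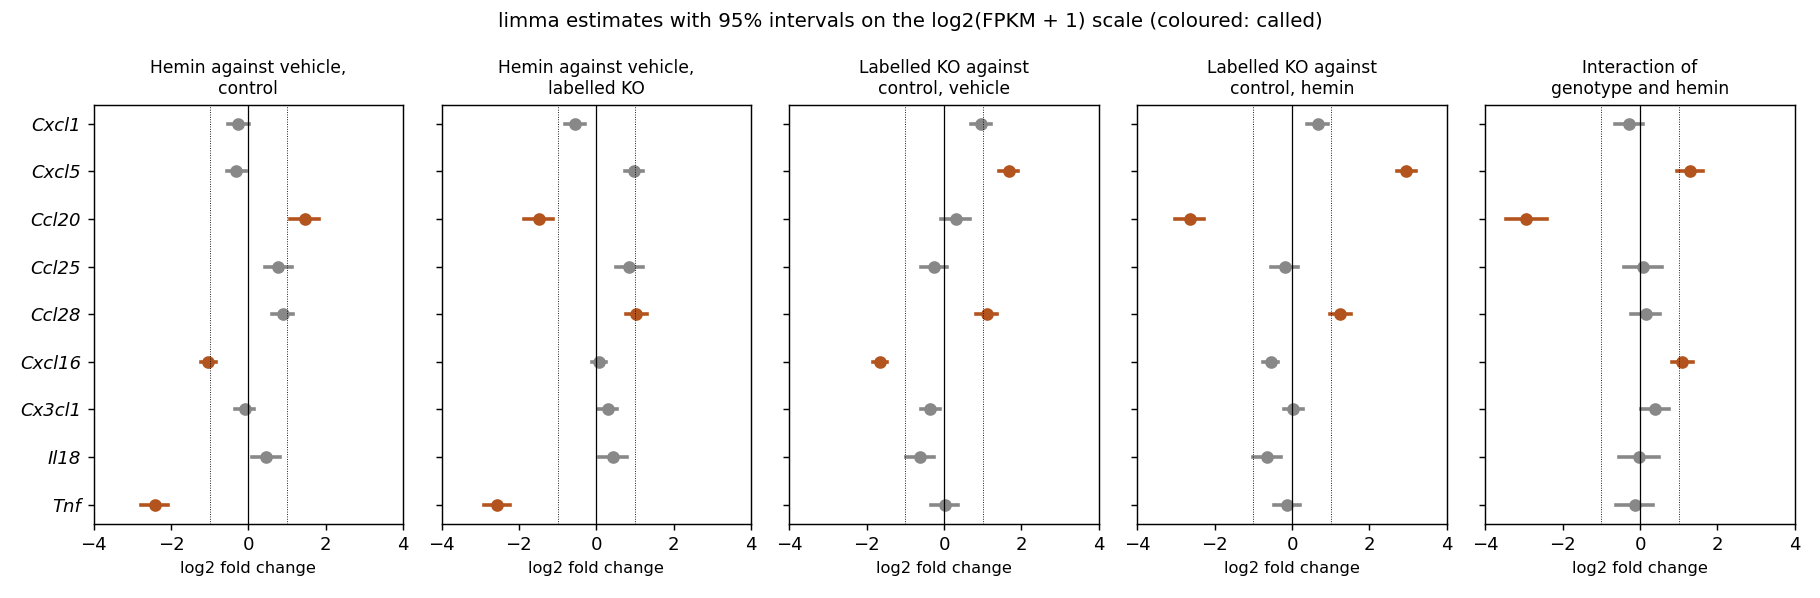
Log2 fold changes of the 9 tested genes with 95% intervals (x axis, log2(FPKM + 1) scale) in the 5 comparisons (panels), with called estimates coloured and dotted lines at the fold threshold of 1. Each panel holds 3 coloured genes.

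Ccl28 and Ccl25, which guide plasma cells and lymphocytes to mucosa, both had higher mean levels with hemin, and Ccl28 was also higher with the KO label. Ccl28 was 9.75, 8.88 and 8.53 FPKM in vehicle controls and 16.7, 14.7 and 22.2 FPKM in hemin controls. In colonoids labelled KO it was 21.6, 20.8 and 19.3 FPKM with vehicle and 41.5, 45.4 and 42.9 FPKM with hemin. The hemin controls and the vehicle libraries labelled KO overlapped, and the other groups did not overlap. Hemin raised Ccl28 2.10-fold labelled KO (log2 fold change 1.04, SE 0.12, limma adjusted p = 2.46e-05), and it was 2.27-fold higher with the KO label under vehicle (1.10, adjusted p = 3.39e-05) and 2.42-fold under hemin (1.25, adjusted p = 1.36e-05). In controls the hemin difference of 0.89 (95% interval 0.62 to 1.16) was under the fold threshold, and was 1.01 and called without control hemin replicate 2. The hemin call labelled KO was lost without KO vehicle replicate 3 (0.99) and on the TPM scale (0.72, or 1.03 relative to the median of all genes). The interaction was not called (0.15, 95% interval -0.23 to 0.53).

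Ccl25, known chiefly from the small intestine, was 1.28, 1.02 and 1.31 FPKM in vehicle controls and 3.04, 1.83 and 3.73 FPKM in hemin controls. Labelled KO, it was 0.813, 0.730 and 0.965 FPKM with vehicle and 2.29, 2.52 and 2.17 FPKM with hemin. The hemin libraries lay above the vehicle libraries in both genotypes. The means were 2.38-fold and 2.78-fold higher with hemin, but on the log2(FPKM + 1) scale the differences of 0.78 (limma adjusted p = 0.0018) and 0.86 (adjusted p = 7.07e-04) did not reach the fold threshold. On fragments with limma-voom both did, at 1.20 and 1.49. The gene span of Ccl25, introns included, shares 204 bases with that of Elavl1 on the opposite strand. Elavl1 was at 5.43 to 8.14 FPKM and so above Ccl25 in every library. Whether exons overlap was not checked, and whether counting used strand is not given in the sources used here.

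The membrane-bound chemokines behaved unlike each other. Cxcl16, the ligand of Cxcr6, was 26.5, 26.8 and 28.5 FPKM in vehicle controls and 12.9, 13.7 and 11.9 FPKM in hemin controls. In colonoids labelled KO it was 8.08, 8.27 and 7.55 FPKM with vehicle and 8.99, 7.23 and 9.04 FPKM with hemin. Vehicle controls stood above all others, hemin controls were next, and both groups labelled KO overlapped. Hemin lowered it 2.12-fold in controls (log2 fold change -1.03, SE 0.08, limma adjusted p = 3.09e-06), which was -0.98 and below the fold threshold without control hemin replicate 3. It was 3.42-fold lower labelled KO with vehicle (-1.66, SE 0.08, adjusted p = 7.45e-08). The hemin difference labelled KO was 0.07 (95% interval -0.12 to 0.25) and -0.26 on the TPM scale, or 0.06 relative to the median of all genes. The interaction was 1.10 (SE 0.12, adjusted p = 8.66e-05). The gene spans of Cxcl16 and Zmynd15, introns included, overlap by 552 bases on opposite strands, and Zmynd15 was at 0.153 to 0.715 FPKM.

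Cx3cl1, fractalkine, was called in no comparison. Its level was 12.7, 13.4 and 14.7 FPKM in vehicle controls and 14.1, 14.3 and 10.1 FPKM in hemin controls, the lowest being replicate 3. Libraries labelled KO had 10.3, 10.9 and 10.0 FPKM with vehicle and 13.6, 12.6 and 12.7 FPKM with hemin. The hemin libraries labelled KO lay above their vehicle libraries, with a log2 difference of 0.29 (95% interval 0.04 to 0.54, limma adjusted p = 0.0427). On the TPM scale it was -0.02, or 0.29 relative to the median of all genes.

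Il18 was the most abundant member in all 4 groups by mean. It was 57.5, 56.7 and 49.8 FPKM in vehicle controls and 71.7, 58.1 and 104 FPKM in hemin controls. With the KO label it was 36.4, 34.3 and 34.6 FPKM with vehicle and 48.0, 51.3 and 44.3 FPKM with hemin. The hemin libraries lay above the vehicle libraries within each genotype. The differences with hemin were 0.47 in controls (limma adjusted p = 0.0364) and 0.43 labelled KO (adjusted p = 0.0416), and those of the label were -0.62 with vehicle (adjusted p = 0.0135) and -0.65 with hemin (adjusted p = 0.0103), all under the fold threshold. On the TPM scale the hemin differences were 0.28 (adjusted p = 0.352) and 0.10 (adjusted p = 0.727), or 0.47 and 0.41 after subtracting the all-gene median, and those of the label -0.48 (adjusted p = 0.146) and -0.66 (adjusted p = 0.0503). Without control hemin replicate 3, the highest library, the hemin difference in controls was 0.24 (adjusted p = 0.0569). The gene span of Il18, introns included, overlaps those of Bco2 by 355 bases and Tex12 by 4507 bases on the opposite strand. The counted length of Il18 is 1031 bases, so most of the Tex12 overlap is not counted for Il18. Reads could belong to either where exons overlap, which was not checked. The highest levels of Bco2 and Tex12 in any library were 7.16 and 3.57 FPKM.

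The order of mean levels changed with the group. In vehicle controls it ran Il18, Cxcl16, Cx3cl1, Ccl28, Tnf, Ccl20, Cxcl5, Ccl25, Cxcl1 and Cxcl2, with libraries of Ccl28 and Tnf and of Cxcl5 and Ccl25 overlapping. With hemin in controls Ccl28 came next after Il18, Cxcl16 and Cx3cl1 overlapped, as did Cx3cl1 and Ccl20 and Cxcl5 and Tnf, and Cxcl1 and Cxcl2 were at 0. In vehicle colonoids labelled KO, Ccl28 was again next, and Tnf and Cxcl16 overlapped. With hemin labelled KO, Il18 and Ccl28 overlapped (47.9 and 43.3 FPKM by mean), as did Cxcl5 and Cx3cl1, Cxcl1 and Tnf, and Tnf and Ccl20.

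**Figure D3:**
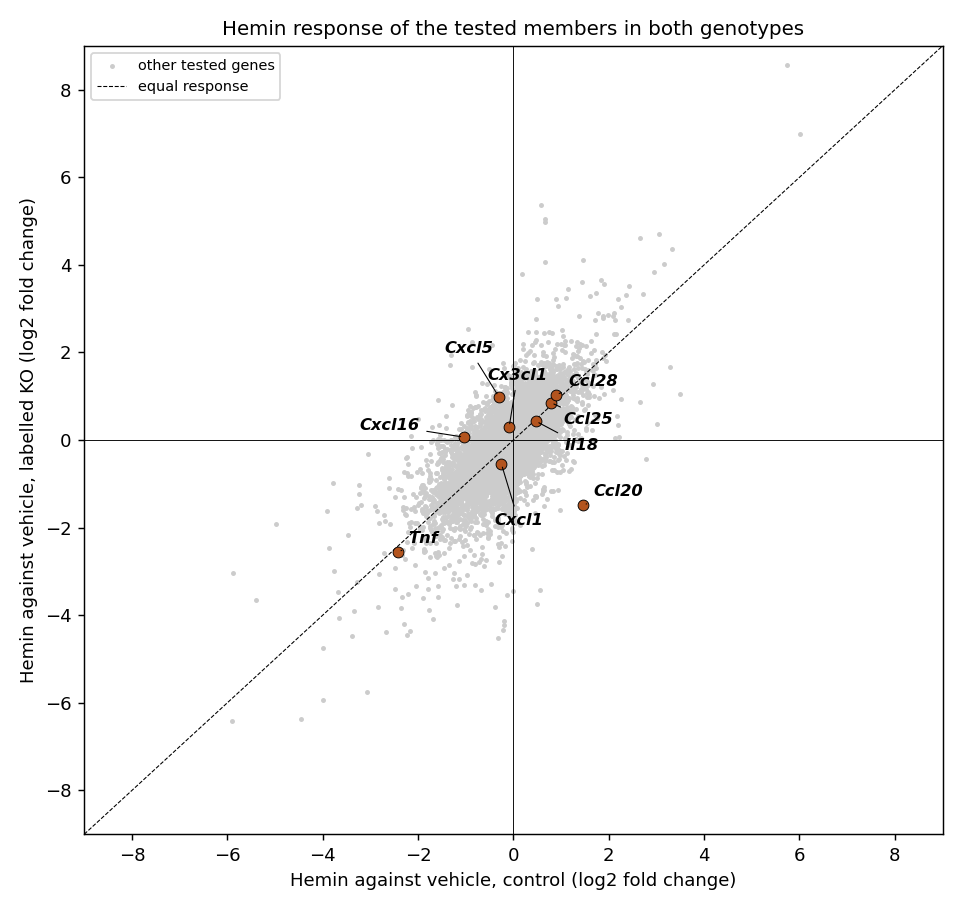
Log2 fold change with hemin in controls (x axis) and labelled KO (y axis), for the 9 tested members (named) and the other genes tested (grey), on the log2(FPKM + 1) scale with the line of equal response dashed. Tnf sits near the dashed line at -2.42 and -2.56, and Ccl20 lies in the lower right at 1.45 and -1.49.

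For each member called at least once, the genes outside the list with the most similar pattern were found by the root mean square difference of centred log2(FPKM + 1) over the 12 libraries. For Tnf (SD of its own log2 values 1.31) they were Muc4 at 0.220 and Mycl at 0.267. Muc4, a membrane mucin, had group means of 6.48 FPKM in vehicle controls, 0.805 in hemin controls, 8.41 with vehicle labelled KO and 0.307 with hemin labelled KO. For Ccl20 (SD 1.00) they were Ffar4, a fatty acid receptor, at 0.335 and Pigr, the receptor that carries IgA across the epithelium, at 0.356. Pigr had means of 420 and 658 FPKM in vehicle and hemin controls and 466 and 163 FPKM labelled KO. For Cxcl5 (SD 1.27) they were Clic5 at 0.223 and Srd5a2 at 0.246. For Cxcl16 (SD 0.698) they were Socs3, a feedback inhibitor of cytokine receptors, at 0.147 and Arhgap9 at 0.153, and for Ccl28 (SD 0.806) Ggh at 0.122 and Cpe at 0.137. These pairs share the same libraries and groups.

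Of 30 further chemokines, 5 entered the test, and hemin lowered 2 in controls and 4 labelled KO (5.93% and 8.07% of all tested genes). These counts are a description, since Ccl2, Ccl6, Ccl7 and Ccl9 reached 1 FPKM only in vehicle libraries and so entered the test through the side where they were high. Ccl6 was 10.8 to 12.6 FPKM in vehicle controls and 0.141 to 0.342 FPKM with hemin, and 21.2 to 24.9 and 0.0774 to 0.118 FPKM labelled KO (log2 fold changes -3.38, limma adjusted p = 8.92e-10, and -4.47, adjusted p = 5.12e-11). Ccl9 fell in both (-1.93, adjusted p = 2.51e-07, and -2.06, adjusted p = 7.51e-08). Ccl2 and Ccl7, chemokines for monocytes, had 0 fragments in all 6 control libraries and means of 2.44 and 2.97 FPKM with vehicle labelled KO, with differences of -1.35 (adjusted p = 1.53e-06) and -1.24 (adjusted p = 9.55e-07) to the hemin libraries labelled KO (0.348 and 0.680 FPKM). Both passed the filter only through the vehicle libraries labelled KO, so all their tests are a description. With vehicle 3 of the 5 (Ccl2, Ccl7 and Pf4) were called higher labelled KO, beside 3.53% of all tested genes, and all 3 reached 1 FPKM only in libraries labelled KO, so that count is a description too. Pf4 was 2.49 to 3.65 FPKM with vehicle and 1.83 to 2.61 FPKM with hemin labelled KO and at most 0.505 and 0.831 FPKM in the controls. The interaction was called negative for Ccl2, Ccl6 and Ccl7, beside 2.56% of all tested genes, and these calls are a description too. With Ccl2 and Ccl7 at 0 in controls, their interaction equals the hemin difference labelled KO. Ccl6 held 3 to 7 fragments in hemin controls and 2 to 5 with hemin labelled KO, so its interaction follows the vehicle levels. The difference of Ccl6 between the vehicle genotypes, 0.95, was 1.01 and called without KO vehicle replicate 1 or control vehicle replicate 1. Ccl7 and Pf4 fall outside the naming rule and were picked after seeing their values. Of 22 chemokine receptors, only Ccr1 was tested (1.06 to 2.82 FPKM by group mean), with log2 differences between -0.90 and 0.44.

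Of 24 other cytokines, 11 were tested. Hemin lowered 4 in controls and 1 labelled KO, and with hemin 4 were higher and 2 lower labelled KO than in controls. Of all tested genes 5.93% and 8.07% were lower with hemin, and 3.10% were higher and 2.91% lower between the hemin genotypes, so the 1 of 11 labelled KO is near the background. Between genotypes, Il7 and Il33 reached 1 FPKM only in libraries labelled KO and Tnfsf13b and Tnfsf15 only in controls, so their genotype differences are a description, and without these 4 genes 3 of 7 were higher and 1 lower with hemin. Mif, an inflammatory cytokine, fell in controls from 290 ± 21 to 99.6 ± 36.4 FPKM (SD, n = 3; log2 fold change -1.61, limma adjusted p = 1.48e-04). Lif fell labelled KO from 5.81 ± 0.41 to 1.48 ± 0.24 FPKM (-1.46, adjusted p = 3.67e-07). Tnfsf15 fell in controls (-1.26, adjusted p = 4.97e-06). Its interaction of 1.12 is a description, since its mean with vehicle labelled KO was only 0.863 FPKM and left little room to fall. Between the hemin groups, Il34, a ligand of the colony-stimulating factor 1 receptor, was higher labelled KO (1.37, adjusted p = 1.15e-04) and Il1rn, the interleukin-1 receptor antagonist, was lower (-1.40, adjusted p = 2.82e-07), as was Tnfsf13b (-1.13, adjusted p = 1.98e-05). The others called were Il34 (-1.10) and Tnfsf13 (-1.05), lower with hemin in controls, and Il7, Mif (1.10) and Tgfb1 (1.03), higher labelled KO with hemin. Without control hemin replicate 3 the calls of Il34 with hemin in controls (-0.92) and of Mif (0.75) and Tgfb1 (0.91) between the hemin genotypes were lost, and that of Tnfsf13 was lost without control vehicle replicate 3 (-0.996). Without control hemin replicate 1 or 2 the interaction of Mif, 0.87, was called (1.05 and 1.04). Lif with hemin in controls, -0.98, was called without control hemin replicate 2 (-1.06) or control vehicle replicate 1 (-1.02). With vehicle 1 was higher labelled KO (Tgfb1; Il33, at 1.00 and under the threshold, was called without KO vehicle replicate 2 at 1.11 or control vehicle replicate 1 at 1.05) and 3 were lower (Il1rn, Tnfsf13b and Tnfsf15), beside 3.53% and 3.27% of all tested genes, or 1 higher and 1 lower of 7 without those 4 genes. The interaction was called positive for Il34 and Tnfsf15, beside 2.57% of all tested genes, and for Tnfsf15 the call is a description. Il7, Il33, Tgfb1 and Tnfsf13 were picked after seeing their values.

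Of 17 cytokine receptors and binding proteins, 13 were tested. Hemin raised 3 labelled KO, beside 4.87% of all tested genes. They were Il17ra (2.76 to 7.37 FPKM by mean, log2 fold change 1.16, limma adjusted p = 9.79e-07), Il22ra1 (8.07 to 18.9 FPKM, 1.13, adjusted p = 2.24e-08) and Il17rc (18.1 to 40.3 FPKM, 1.11, adjusted p = 1.83e-04), receptors through which epithelium receives interleukin-17 and interleukin-22. In controls these were 0.85, -0.19 and 0.56, and Il4ra fell (-1.10, adjusted p = 1.91e-05, or -0.96 and not called without control hemin replicate 3), which was also lower labelled KO with vehicle and was picked after seeing its values. The response of Il22ra1 differed between genotypes (interaction 1.32, adjusted p = 9.60e-07), while that of Il17ra (0.30, adjusted p = 0.107) and Il17rc (0.55, adjusted p = 0.127) did not pass the test.

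Of 11 genes that release or process these ligands, 10 were tested, and hemin lowered 1 in each genotype, a share near that of all tested genes. Pycard, the adaptor that links inflammasome sensors to caspase-1, fell from 20.6 ± 0.4 to 6.93 ± 0.54 FPKM with hemin in controls and from 11.6 ± 0.5 to 0.663 ± 0.050 FPKM labelled KO (log2 fold changes -1.45, limma adjusted p = 3.33e-08, and -2.93, adjusted p = 7.64e-11), and the response differed (interaction -1.48, adjusted p = 1.60e-06). Pycard (-2.25, adjusted p = 6.02e-10) and the inflammasome sensor Nlrp6 (-1.38, adjusted p = 1.15e-07) were lower labelled KO with hemin, 2 of 10 beside 2.91% of all tested genes.

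Of 20 components and targets of NF-kB, 19 were tested, and hemin lowered 6 in controls and 2 labelled KO, beside 5.93% and 8.07% of all tested genes. Tnfaip2 and Icam1 reached 1 FPKM only in vehicle libraries, and without them the counts were 4 and 1 of 17. The counts labelled KO are near the background. Bcl3, a nuclear NF-kB cofactor, was lower in both (-1.84, limma adjusted p = 6.04e-06, and -1.21, adjusted p = 8.70e-05), and the adhesion molecule Icam1 had differences of -1.39 and -1.18, given as a description. Cebpb was 21.9 ± 1.5 FPKM in vehicle controls and 8.79 ± 5.47 FPKM in hemin controls, from 2.79 to 13.5 FPKM (-1.43, adjusted p = 0.00886). That call rests on control hemin replicate 3, the lowest, without which the difference was -0.85 and not called. The difference between the hemin genotypes, 0.63, was 1.02 and called without control hemin replicate 2, as was the interaction (1.18, and 1.57 without it). Birc3, Tnfaip2 and Tnfaip3 complete the 6 and were picked after seeing their values. Birc3 (-1.04) was not called without control hemin replicate 2 (-0.92) or control vehicle replicate 1 (-0.97), nor Tnfaip2 (-1.04) without control hemin replicate 1 (-0.98). Tnfaip2 reached 1 FPKM only in vehicle controls (1.20 to 1.62 FPKM, other group means 0.172, 0.0640 and 0.00466 FPKM), so its tests are a description. With vehicle Tnfaip2 alone was called, lower labelled KO. Of 6 regulators of mRNA decay, all tested, Zfp36, which binds AU-rich mRNAs such as that of Tnf, rose with hemin labelled KO from 14.1 ± 0.5 to 36.8 ± 3.9 FPKM (1.32, adjusted p = 1.38e-04) and differed by 0.32 (adjusted p = 0.19) in controls, with an interaction of 1.00 (adjusted p = 0.0221) just under the fold threshold, which it passed when any 1 of 6 libraries was left out (1.00 to 1.16). The called 1 of 6 stands beside 4.87% of all tested genes. The other 5 had negative differences with hemin labelled KO, from -0.97 for the related Zfp36l1 (adjusted p = 9.42e-06, or -1.02 and called without KO hemin replicate 1) and -0.80 for Khsrp to -0.27, and the median of the list was -0.34.

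**Figure D4:**
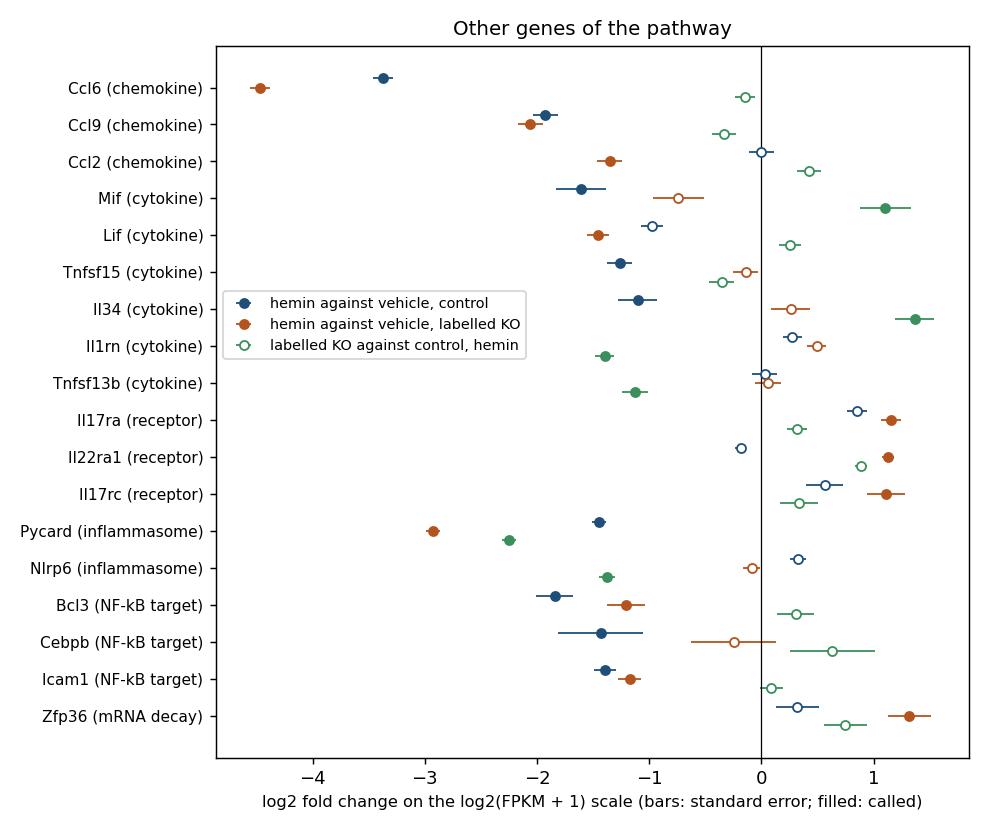
Log2 fold changes with standard errors (x axis, log2(FPKM + 1) scale) of the named genes of the other lists in 3 comparisons (colours), with filled points for called values. Ccl6, Ccl9, Bcl3, Icam1 and Pycard are lower with hemin in both genotypes, and Il17ra, Il22ra1, Il17rc and Zfp36 are called higher with hemin in colonoids labelled KO.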

How the data were processed

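mRNA of 12 colonoid libraries, 3 per group, was purified with poly-T beads and sequenced by a provider. Per the submitters' processing notes, fastp, HISAT2 2.0.5 and featureCounts 1.5.0-p3 were used with mm10. The authors deposited FPKM for 54532 genes, already scaled between libraries. Within a tolerance of 0.1 fragments, 100% of values corresponded to a whole number of fragments, and counts recovered from the deposited FPKM gave depths of 11648801 to 25101868 per library. A floor of 3 fragments was used, which covers counting error only.

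Computed here: limma 3.58.1 in R 4.3.3 with data.table, version 1.17.8, on log2(FPKM + 1), 1 mean per group over all 12 libraries, no block, intensity trend, Benjamini-Hochberg adjustment over 12740 genes. Calls needed p below 0.05 after adjustment and a log2 fold change beyond 1 in either direction, and tested genes reached 1 FPKM in 3 or more libraries. The script was tested on simulated data. Alternatives were a pseudocount of 0.1, no filter, TPM, a replicate block, limma-voom on fragments and each library left out. The last of these for the genes of the other lists, TPM without Gm23935, the most abundant gene, and voom over genes with 10 or more fragments were added after the data were seen. Promoter and 3′ UTR words were searched with Python 3.11.15, and figures drawn with matplotlib 3.10.9. Groups came from the labels.

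Named genes were the members, Hmox1, up to 3 called genes of largest change per list with hemin and up to 3 between genotypes with hemin, and the nearest pair of genes of each called member. Members and lists were chosen with earlier results of these data known. Expression values came from FPKM alone, promoters from RefSeq, 3′ UTRs, shared stretches and overlaps from the GENCODE M21 annotation, and 1 result is not reported here.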

Additional observations from a re-analysis of the deposited data

Results flagged for a closer look

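The response to hemin differed between the genotypes, by the limma interaction term, for 3 members. Ccl20 had an interaction of -2.94 on the log2(FPKM + 1) scale, with hemin differences of 1.45 in controls and -1.49 labelled KO. Cxcl5 had an interaction of 1.29, with hemin differences of -0.30 and 0.99. Cxcl16 had an interaction of 1.10, with hemin differences of -1.03 and 0.07. The 3 interactions stayed called in every alternative run, including without each library. That of Cxcl16 lay just past both thresholds on the TPM scale (1.00, limma adjusted p = 0.0431). Hoxb13 and Hoxd13, at 0 in all control libraries, differ between the genotypes as well, and genotype and origin of the culture cannot be told apart.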

How the results depend on the processing

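Over the single-gene values, 277 of 315 kept direction and side of the threshold under the settings that kept all libraries, and 508 of 525 when 1 library was left out, where Cxcl1 missed the filter without any of the vehicle libraries labelled KO. The members called numbered 3 in each comparison. For hemin labelled KO they were 6 with limma-voom, 7 with voom over all genes with 10 or more fragments and 6 with a pseudocount of 0.1, and for hemin in controls 5 with each of these. For the genotypes with vehicle they were 5 with voom over all such genes. Leaving out 1 library gave 2 to 4 for hemin in either genotype, 3 to 4 for the genotypes with vehicle and 3 otherwise. Smaller moves under the other settings are not listed as counts. Among them, Cxcl1 was called between the genotypes, with vehicle and with hemin, on both TPM scales, with a pseudocount of 0.1 and with voom. Some values changed sign. On the TPM scale the Ccl28 interaction was -0.0233, Cx3cl1 with hemin labelled KO -0.0201 and Cxcl16 with hemin labelled KO -0.26 (-0.15 without Gm23935). Relative to the median of all genes on that scale these were 0.09, 0.29 and 0.06, with the sign of the main fit. Without Gm23935 Cx3cl1 between the hemin genotypes was -0.0212. The Cxcl1 interaction was 1.87 with voom, 1.87 over all genes and 0.43 with a pseudocount of 0.1. The cause was not tested. With 1 library left out, the interaction ranged from -0.13 to 0.24 for Ccl25 and -0.22 to 0.20 for Il18, Cx3cl1 from -0.12 to 0.11 between the hemin genotypes and -0.17 to 0.0639 with hemin in controls, and Tnf from -0.29 to 0.00315 and -0.0400 to 0.0709 between genotypes with hemin and vehicle.

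All genes called numbered 1033 for hemin in controls (TPM 1705, without Gm23935 1606, voom 1830, voom over all 2774, pseudocount 1760), 1648 labelled KO (2737, 2475, 2605, 4187 in that order of the first 4), 866 for the genotypes with vehicle (voom 1304, over all 2450), 766 with hemin (voom 1399, over all 2207, pseudocount 1342) and 654 for the interaction (over all 1369). Same-numbered libraries did not deviate together (mean correlation -0.0425, 18 pairs, against 0.0232 in 36 others). The ranges overlapped (-0.327 to 0.179 and -0.395 to 0.344), so this cannot settle whether the numbers pair the libraries. A replicate block gave 761 calls between the hemin genotypes and changed no member's call. Genes with few fragments, Cxcl1 and Cxcl2 above all, are limited by depth.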
